A study of Mus musculus with 59 samples.

Results

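The genes described here encode the proteins of the cytosolic ribosome. They are the rows of the deposited expression table whose mouse gene identifier carries a protein-coding symbol of the form Rpl or Rps with digits and at most one of the letters a, x or l, together with Rplp0, Rplp1, Rplp2, Rpsa and Fau. This gave 79 members of the 18088 genes in the table, 32 named for the small subunit, 44 for the large subunit and 3 for the stalk. Rps4l carries such a symbol but is annotated as a processed pseudogene and was left out, and Rpl10l and Rpl39l were not analysed here. All 79 members reached 10 normalised counts in 4 or more libraries, the filter used, and were tested.

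RNA was sequenced from the prefrontal cortex of 59 mice on the C57BL/6J strain at postnatal day 25. The mutant mice were Dyrk1a+/I48X heterozygotes, which carry 1 altered copy of the gene for the kinase Dyrk1a (30 mice), and the comparison mice were wild type (29 mice). Pups of each genotype and both sexes had taken in vehicle, lithium or the antidepressant fluoxetine with their dam's milk between days 3 and 24, with 5 mice in each of the 12 groups except wild-type fluoxetine males, with 4. The labels name no litters, pups of the same dam share its drug, and p-values here measure only the spread between these mice.

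Each cytosolic ribosome joins a small subunit, which reads the codons of the mRNA, to a large subunit, which links amino acids, and every subunit needs its proteins in matched amounts. Ribosomal protein mRNAs are abundant in nearly all cells, and many begin with a run of pyrimidines, the 5′ terminal oligopyrimidine (TOP) motif, through which the mTOR kinase complex and the RNA-binding protein Larp1 control their translation and stability. In the brain, growing neurons make ribosomes in large numbers, and neurons also carry them into dendrites and axons. The genes are scattered over the genome: the 79 members lay on 20 chromosomes, with 14 on chromosome 7 and 4 on the X chromosome.

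The start of the transcript was examined first, because the TOP motif is the sequence feature for which this family is known. RefSeq promoter windows on GRCm38.p6 were found for 59 of the 79 members (71 windows). An unbroken run of 8 or more C or T on the sense strand, lying within the 30 bases around the annotated start, was present in 28 of these 71 windows (39.4%), against 12% of all 32851 promoter windows. The sequence CCGGAA, the core recognised by ETS factors such as GABP, was sought over the whole promoter window, which is longer than those 30 bases. It was found on either strand in 33 of the 71 windows (46.5%), against 14.9% of all windows. Its reverse complement begins with pyrimidines and can overlap such a run. The 30-base windows below belong to members on which the later results turn. They hold 15 bases on each side of the RefSeq start, with the longest run of C or T in capitals.
Rps6, chr4:86857353-86857382, minus strand: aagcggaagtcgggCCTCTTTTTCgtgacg
Rps9, chr7:3704026-3704055, plus strand: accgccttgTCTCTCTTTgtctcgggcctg
Rpl18, chr7:45718056-45718085, plus strand: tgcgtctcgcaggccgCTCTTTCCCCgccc
Rplp2, chr7:141447636-141447665, plus strand: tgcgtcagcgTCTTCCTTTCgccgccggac
Rpl13, chr8:123102335-123102364, plus strand: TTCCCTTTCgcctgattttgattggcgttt
Rpl4, chr9:64173372-64173401, plus strand: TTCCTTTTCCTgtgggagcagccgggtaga
Rpl15, chr14:18270972-18271001, minus strand: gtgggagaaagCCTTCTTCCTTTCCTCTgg
Rpl5, chr5:107900513-107900542, plus strand: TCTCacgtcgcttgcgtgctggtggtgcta
Rpl11, chr4:136053379-136053408, minus strand: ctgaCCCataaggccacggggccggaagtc
Rps12, chr10:23787195-23787224, minus strand: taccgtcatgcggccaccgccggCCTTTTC
Rps28, chr17:33824548-33824577, minus strand: ggtaccgcgtgcggTCTCgcgagagcgaaa
The run was 10 bases in Rps6 and began at the base before the annotated start, and it was 17 bases in Rpl15. The longest run in the window was 7 bases in Rps12, 4 in Rpl5 and Rps28, and 3 in Rpl11. A RefSeq start can lie some bases away from the start that cells use, so a short run says only that these letters are not in this window. Nor does a long run show a TOP motif at the first base. The runs of Rpl13 and Rpl4 reached the edge of the window, 15 bases before the annotated start, and may extend further upstream. Both ended before the annotated start, and the run of Rpl18 began after it.

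The levels of the members spanned a wide range when set per kilobase of the annotated principal transcript. Values are normalised counts, which are read counts divided by a size factor of each library. Rplp1, an acidic stalk protein that helps recruit elongation factors, was highest at 13865 normalised counts per kb (mean of 59 libraries), followed by Rpl41, the smallest ribosomal protein, at 8790.4 and Rps29 at 8139. The lowest were Rpl12 at 236.5, Rps27 at 291.4 and Rpl3l at 5.61 normalised counts per kb. Rpl3l, the paralogue of Rpl3 made in heart and skeletal muscle, reached 10 normalised counts in 15 of the 59 libraries. In all, 69 of the 79 members lay above the 90th percentile of all genes tested on this scale. The median transcript was 878 bases long, but the annotated principal transcript was 5179 bases for Rps15a, 3706 for Rps20 and 2989 for Rpl18, which lowers their level per kb. The members together made up 0.887% ± 0.0727 of all normalised counts (SD, n = 59 libraries).

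**Figure D1:**
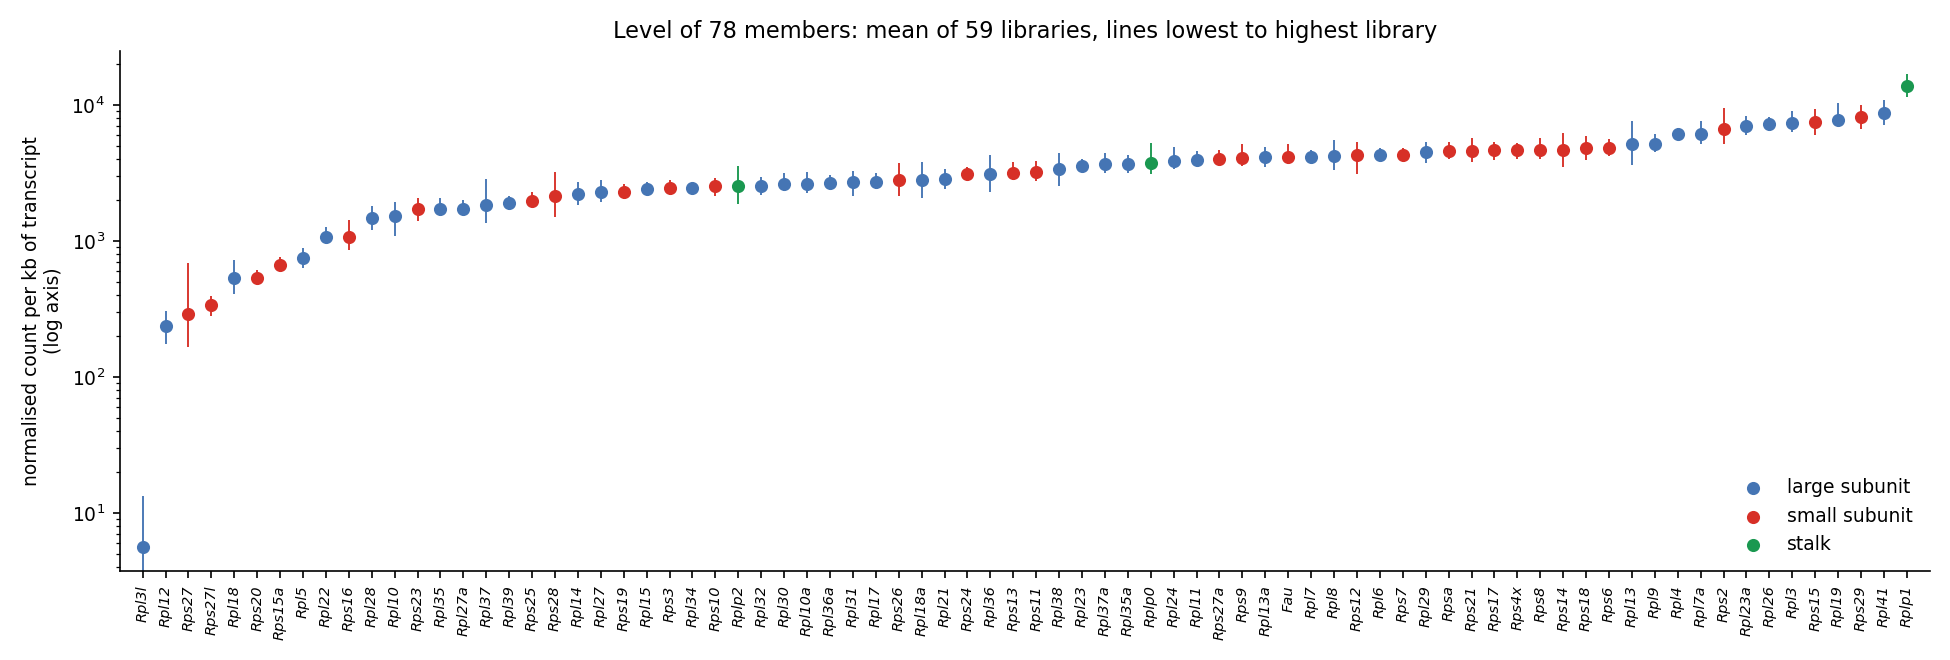
Level of 78 members in normalised counts per kb of transcript on a log axis, coloured by subunit; points are means of 59 libraries and lines run from the lowest to the highest library. Rplp1 is highest at 13865 and Rpl3l lowest at 5.61; the lowest library of Rpl3l is at 0, below the axis.

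Many members share sequence with processed pseudogenes and with other genes, so the authors' counting could divide reads between copies. The share of 31-base words of a member's principal transcript that also occur in transcripts of other genes had a median of 49.5%, and it exceeded 50% for 38 members. It was 98.7% for Rps27, so the low level of Rps27 above is uncertain, and 0 for Rpl3l. For Rpl12 it was 49.8%, with 18 other genes sharing words, so the low level of Rpl12 is uncertain as well. It was 84.9% for Rps6, 87.6% for Rpl3, 80.8% for Rpl13, 35.1% for Rps9 and 8.28% for Rpl8. In the comparison of vehicle males described further on, 16 of the 38 members with over 50% shared words were higher in heterozygous mice, as were 12 of the other 41, while 16.7% of all genes tested were.

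The members varied together from mouse to mouse within the groups. After group means were removed, the correlation between pairs of members over the 59 libraries had a median r of 0.65, and 74.8% of the 3081 pairs were above 0.5. These correlations are descriptions, since all members come from the same libraries and share depth and size factors. Their own spread was small, with a median replicate SD of 0.0933 on the log2 scale, against 0.18 for all genes tested. Rpl4, which lines the tunnel that the new protein leaves through, varied least at 0.0388, followed by Rpl7 at 0.0398 and Rpl22, a member that cells can replace with its paralogue, at 0.0442. Rpl3l, Rps27 and Rps28 varied most, at 0.70, 0.43 and 0.26. Of the genes outside the list, the 5 best correlated with the mean of the members were Gm11808 (r = 0.87), the pseudogenes Rps23-ps1 and Gm7536 (0.86 and 0.86), the transcription factor gene Usf2 (0.85) and Ndufb7, a subunit of respiratory complex I (0.85).

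The common movement was set beside a property of the libraries. For each library, the slope of log2 deviation on transcript GC content was fitted over 17811 genes that are not members, together with a slope on length. The mean of the members correlated with this GC slope at r = 0.65 and Spearman's rho = 0.67 over 59 libraries, and at r = 0.70 and rho = 0.73 after group means were removed. Without the 2 libraries of most extreme slope the r was 0.58, and 0.71 after group means were removed. Other measures of the libraries gave weaker correlations. The r was -0.50 (rho = -0.39) with the mean of the excitatory cortical neuron markers, -0.34 (rho = -0.41) with the length slope and 0.35 (rho = 0.42) with the mean of the olfactory bulb markers. After group means were removed these were -0.41 (rho = -0.36), -0.44 (rho = -0.43) and 0.22 (rho = 0.29) in the same order. Without the 2 most extreme libraries of each measure, r over the remaining 57 was -0.39, -0.40 and 0.32. The measures are taken from the same libraries, and these values are descriptions. Across members, the slope of each on the mean of the others correlated with its own GC content at r = 0.50 over 79 members. The steepest was Rps28, a small-subunit protein, with a slope of 2.79 and a GC content of 56.3%. The flattest was Rpl5, which binds 5S RNA, with a slope of 0.21 and a GC content of 42.7%. The part of library GC content in the results below was not tested beyond the fits with the slopes as covariates.

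**Figure D2:**
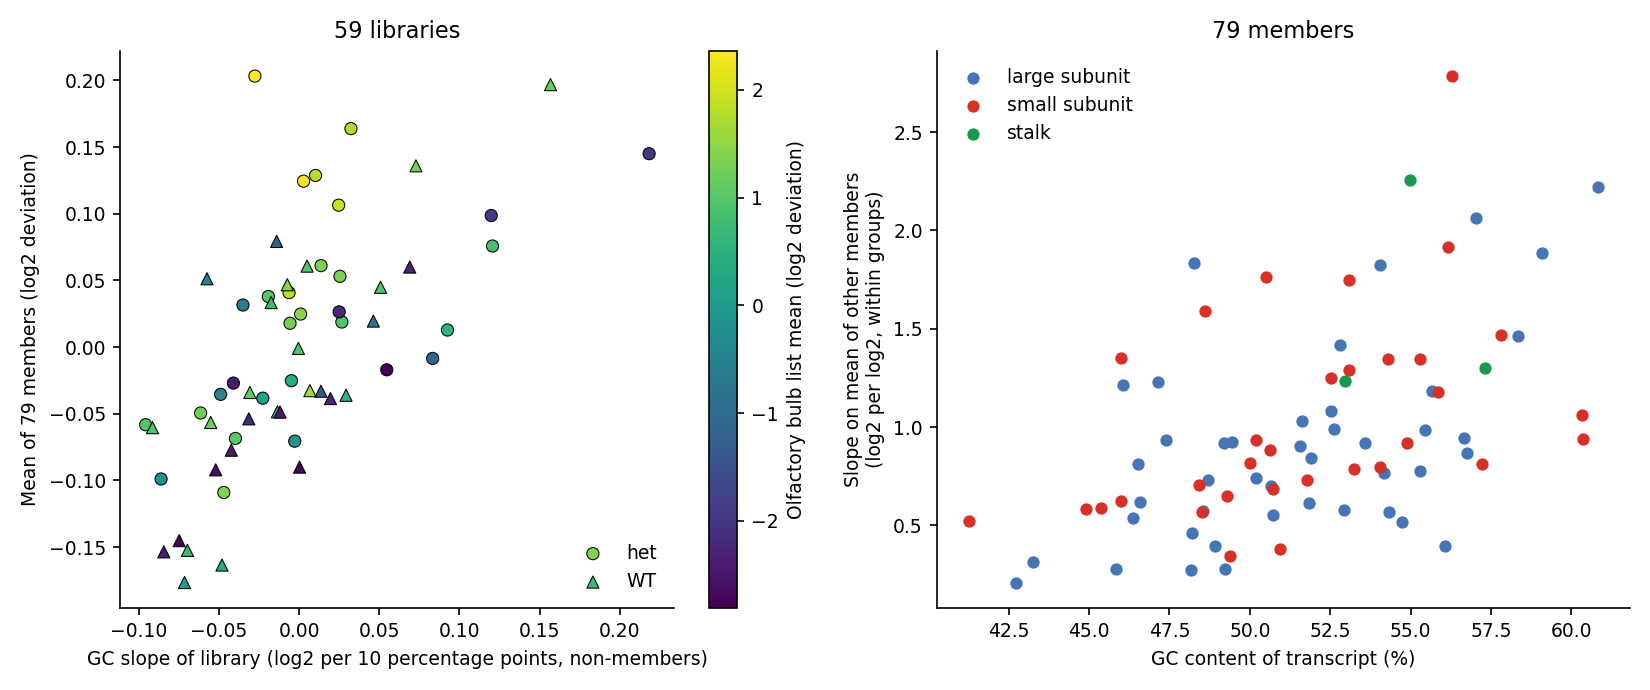
Left, mean log2 deviation of the 79 members against the GC slope of each library (log2 per 10 percentage points, over non-members), circles for heterozygous and triangles for wild-type mice, coloured by the mean of the olfactory bulb list; r is 0.65 over 59 libraries. Right, the slope of each member on the mean of the other members against the GC content of its transcript, coloured by subunit; r is 0.50 over 79 members.

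The libraries also differed in tissue. The 10 markers of cortical excitatory neurons summed to between 88359 and 200128 normalised counts in every library, as the labelled tissue implies. Markers of the olfactory bulb, which lies in front of the frontal cortex, varied widely between mice. The summed level of the 14 olfactory bulb markers ran from 9481 to 50661 normalised counts in heterozygous vehicle males and from 2235 to 6714 in wild-type vehicle males. It ran from 2254 to 25407 in heterozygous vehicle females and from 2786 to 31193 in wild-type vehicle females. No marker was at 0 in any vehicle library. In these bulk samples, fewer cells of a type and less RNA per cell cannot be told apart. Under vehicle, Dyrk1a itself had 2326 ± 65.9 normalised counts in heterozygotes, against 2232 ± 55.7 in wild-type mice (SD over 10 mice of each genotype), so its level does not check the genotype labels. Depth ran from 24391022 to 33842466 recovered counts, and its correlation with the mean of the members was r = 0.14 and rho = 0.18 over 59 libraries.

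The mean of the 79 members, on the log2 scale and centred on the 59 libraries, gives the level of the family in each group. Under vehicle it was -0.01 ± 0.07 in heterozygous females, -0.05 ± 0.08 in wild-type females, 0.06 ± 0.13 in heterozygous males and -0.05 ± 0.07 in wild-type males (SD, n = 5 each). Under lithium it was 0.00 ± 0.10 in heterozygous females, -0.04 ± 0.05 in wild-type females, 0.02 ± 0.06 in heterozygous males and -0.06 ± 0.10 in wild-type males (SD, n = 5 each). Under fluoxetine it was 0.01 ± 0.04 in heterozygous females and 0.03 ± 0.15 in wild-type females, and 0.06 ± 0.07 in heterozygous males (SD, n = 5 each) and 0.02 ± 0.04 in wild-type males (SD, n = 4). The ranges of the groups overlapped throughout. The spread within heterozygous vehicle males was wide: replicates 3, 4 and 5 stood at 0.12, 0.20 and 0.13, and replicates 1 and 2 at -0.07 and -0.07, inside the range of wild-type vehicle males (-0.15 to 0.05).

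**Figure D3:**
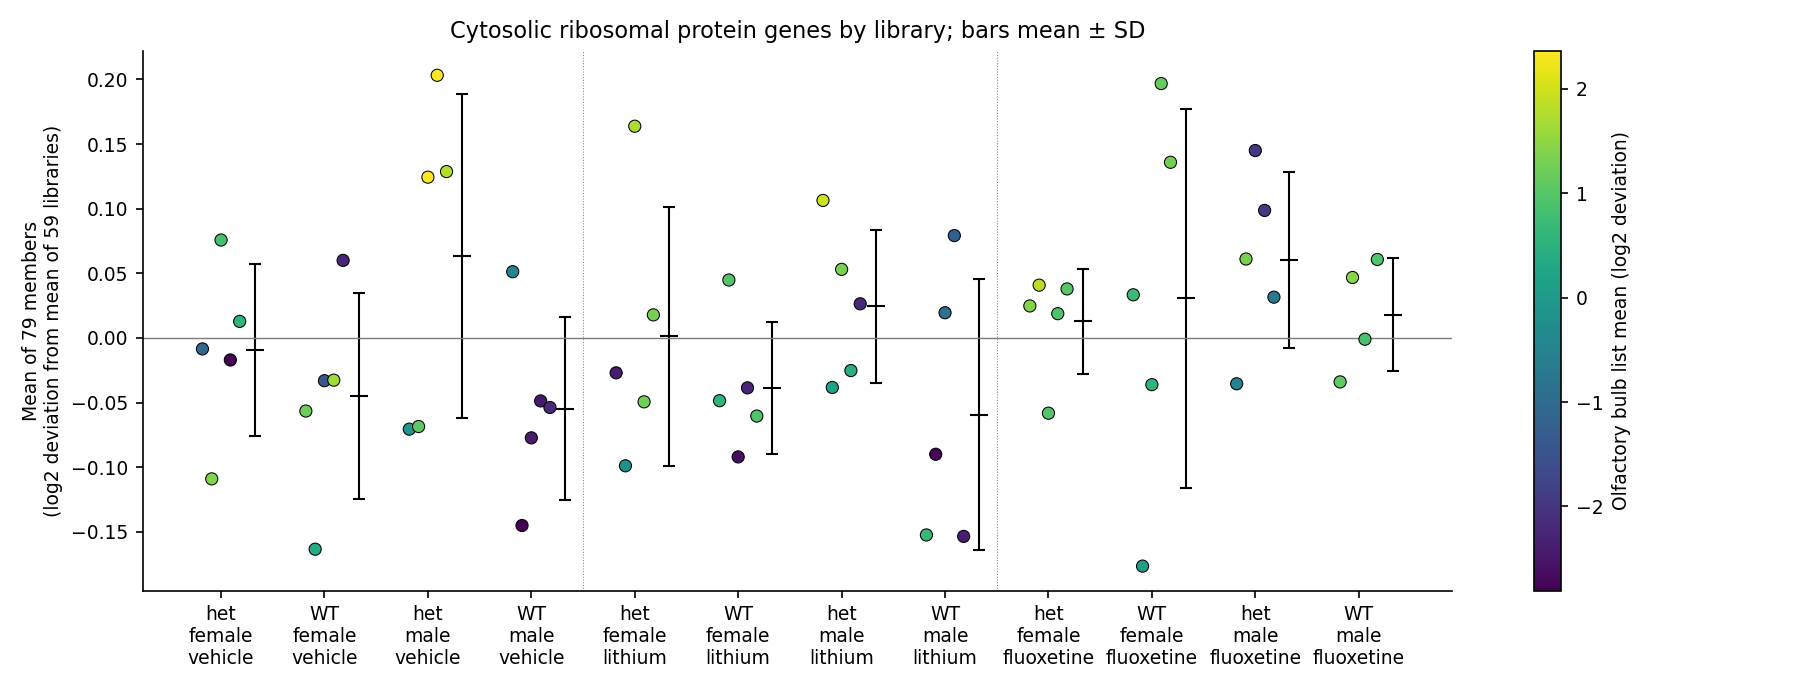
Mean log2 deviation of the 79 members in each of the 59 libraries by genotype, sex and drug, coloured by the mean of the olfactory bulb list; bars give the group mean ± SD. In heterozygous vehicle males the 3 libraries of highest olfactory bulb mean (1.77 to 2.36) lie at 0.12 to 0.20 and the other 2 lie at -0.07.

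The first comparison asked how the Dyrk1a mutation alters expression without drug. Of the 79 members, 11 were higher in heterozygous vehicle mice than in wild-type vehicle mice, 0 were lower and 68 did not pass (limma, Benjamini-Hochberg adjusted p below 0.05). Of all 17901 genes tested, 6.03% were higher and 13.1% differed in either direction. The median log2 change over the members was 0.07, with 71 of 79 above 0, against a median of -0.00 over all genes tested. The members vary together, so counts of members above 0, here and below, are not counts of independent results. The called members came from both subunits, with 6 of 44 from the large and 5 of 32 from the small.

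The values behind these calls were as follows, in 10 heterozygous and 10 wild-type vehicle mice. Rpl13, a large-subunit protein, ran from 3471 to 5982 normalised counts in heterozygous mice (median 4419) and from 3059 to 4619 in wild-type mice (median 3530). Rpl18, also of the large subunit, ran from 1449 to 2183 (median 1604.5) in heterozygous mice and from 1277 to 1765 (median 1475) in wild-type mice. Rps12, a small-subunit protein, ran from 2172 to 3140 (median 2684) in heterozygous mice and from 1834 to 2450 (median 2212) in wild-type mice. The ranges of the genotypes overlapped for each of the 11, and for each of the 11 the highest heterozygous mouse was above every wild-type mouse.

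On the log2 scale, Rpl13 was higher by 0.32 ± 0.09 (SE; limma adjusted p = 0.0272), Rps12 by 0.23 ± 0.07 (0.0353) and Rpl18 by 0.21 ± 0.06 (0.0338), with 9 of 10 heterozygous mice above the wild-type mean of their sex for each. Rps9 was higher by 0.13 ± 0.04, Rpl3, close to the catalytic centre, by 0.12 ± 0.04, Rpl30 by 0.11 ± 0.04 and Rpl8 by 0.18 ± 0.06 (limma adjusted p from 0.0371 to 0.0427). Rps23 and Rpl23a were also called, as was Rps6, the phosphorylation target of the S6 kinases. Rps6 was higher by 0.10 ± 0.04, in 10 of 10 heterozygous mice, with a limma adjusted p of 0.0499, just inside the threshold. Rplp0, the base of the stalk, was just outside it at 0.05001, with 5319 ± 595 normalised counts in heterozygotes and 4735 ± 306 in wild types (SD over 10 mice of each genotype).

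Several other members did not pass. Rpl10, needed for the last steps of large-subunit maturation, differed by 0.20 ± 0.07 (limma adjusted p = 0.0518) and was above the wild-type mean of its sex in 10 of 10 heterozygous mice. Rplp2 differed by 0.23 ± 0.09 (0.0783) and Rplp1 by 0.04 ± 0.06 (0.709). Rps14 differed by 0.13 ± 0.08, Rps19, the gene most often mutated in Diamond-Blackfan anaemia, by 0.04 ± 0.04, Rpsa, the laminin receptor precursor, by 0.03 ± 0.04, and Rps4x by 0.04 ± 0.03 (limma adjusted p from 0.223 to 0.615). Of the proteins made as fusions, Rps27a, fused to ubiquitin, differed by 0.06 ± 0.03 and Fau, fused to a ubiquitin-like protein, by 0.07 ± 0.04 (limma adjusted p of 0.161 and 0.277). Rpl5, Rpl11, Rpl22, Rpl26, Rpl36a, Rpl39, Rpl41, Rps27 and Rps27l had changes between -0.02 and 0.06 and did not pass. Rpl3l was the member of lowest change, at -0.50 ± 0.31 (limma adjusted p = 0.259), with values of 4.13 to 8.70 normalised counts in heterozygous mice and 5.08 to 12.1 in wild-type mice.

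The count of calls moved more than the size of the change. Leaving out 1 library at a time gave between 0 and 27 called members, and 15 of the 20 libraries each moved the count by more than 1.5 times, while the median log2 change over the members stayed between 0.05 and 0.09 in these 20 fits. The count was 0 without heterozygous males 3 or 4, heterozygous females 3 or 5, wild-type females 2 or 3, or wild-type male 2, and 1 without heterozygous male 5 or wild-type female 5. It was 3 without heterozygous female 2, and 4, 6 and 7 without wild-type males 3, 4 and 5, while it was 27 and 22 without heterozygous males 1 and 2. With only the vehicle groups in the fit, which leaves each fold change as it was and estimates the spread from fewer mice, 0 members were called at the same median of 0.07. With the olfactory bulb mean as a covariate 0 members were called and the median was 0.05. With the GC and length slopes as covariates 3 were called, Rpl13, Rps9 and Rpl23a, and the median was 0.04. Shares of all genes called are given here and below for the main fit only. Counts under other settings therefore do not tell a change in the members from a change in calls over all genes.

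The sexes were then separated. In vehicle males, 28 of the 79 members were higher in heterozygous mice, 0 were lower and 51 did not pass, while 16.7% of all genes tested were higher and 36.7% differed in either direction. The median log2 change was 0.10 over the members, against -0.01 over all genes. In vehicle females, 0 members were called by limma or by edgeR, as was 0% of all genes; 1 member, Rps21, had an unadjusted p under 0.05 in limma, as did 3.52% of all genes, and 0 had in edgeR. The median change in females was 0.03, with 61 of 79 above 0.

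In males, Rps9 (chr7:3703993-3706897 on GRCm38) had 3585, 3698, 4489.6, 4724 and 4252 normalised counts in heterozygous replicates 1 to 5 and 3641, 3272, 3428, 3412 and 3566 in wild-type replicates 1 to 5. Heterozygous replicate 1 lay inside the wild-type range, and replicates 3, 4 and 5 stood apart from replicates 1 and 2. Rpl13 (chr8:123102350-123105244) had 4080.0, 4309.8, 5982, 5464 and 5066 in heterozygous males and 4034, 3333, 3574, 3691 and 3248 in wild-type males, without overlap. Rpl3 (chr15:80077791-80091868) had 9438, 9936, 11544, 12151 and 11322 in heterozygous males and 9362, 9022, 9188, 9645 and 9656 in wild-type males. For Rpl3 the lowest heterozygous male lay inside the wild-type range, and replicates 3, 4 and 5 were again the highest. Rps6 (chr4:86854660-86857412) had 4077, 4309.8, 4697, 4963 and 4650 in heterozygous males and 4134, 3884, 4059.9, 3939.8 and 4246 in wild-type males, with heterozygous replicate 1 inside the wild-type range. In females, Rps6 had 4257, 4192, 4373, 4396 and 4276 in heterozygous mice and 4138, 3816, 4081, 4347 and 4501 in wild-type mice, and the ranges overlapped.

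Among the 8 members of smallest p in males were Rps9 (0.25 ± 0.06), Rpl13 (0.47 ± 0.13), Rpl3 (0.21 ± 0.06), Rpl18 (0.33 ± 0.09), Rpl30 (0.18 ± 0.05), Rpl8 (0.30 ± 0.09) and Rpl23a (0.19 ± 0.05), as log2 changes with SE and limma adjusted p from 0.00136 to 0.00569. Other members described above that passed included Rpl11 (0.13 ± 0.04), Rplp0 (0.26 ± 0.08), Rpl5 (0.17 ± 0.05) and Rps6 (0.16 ± 0.05). They also included Rps12 (0.31 ± 0.10), Rps23 (0.24 ± 0.09), Rpl12 (0.26 ± 0.10) and Rpl7 (0.09 ± 0.03). Rplp1 at -0.00 ± 0.08, Rpl41 at -0.07 ± 0.08, Rps27 at -0.21 ± 0.26 and Rpl3l at -0.67 ± 0.44 were at or below 0 and did not pass. For 6 members the ranges did not overlap with heterozygous males above, against 6.16% of all genes. In the matching female comparison, the log2 difference was 0.17 ± 0.13 for Rpl13, 0.04 ± 0.06 for Rpl3 and 0.02 ± 0.06 for Rps9, each with a limma adjusted p of 1.0.

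**Figure D4:**
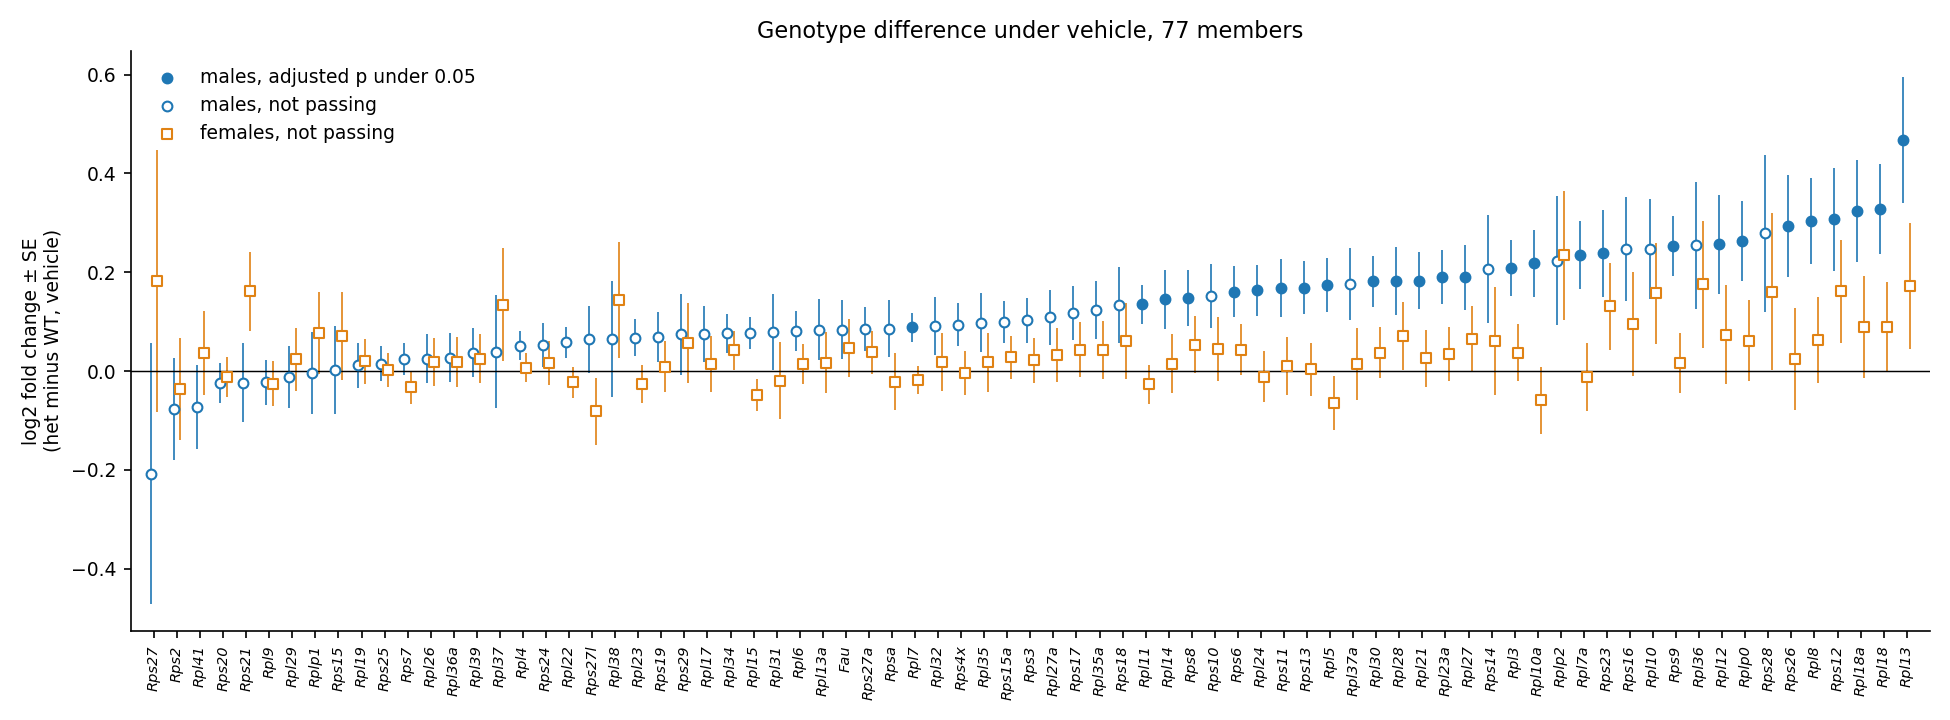
log2 fold change ± SE between heterozygous and wild-type vehicle mice for 77 members in males (circles, filled where the limma adjusted p is under 0.05) and females (squares), ordered by the change in males. The 27 filled points run from 0.09 for Rpl7 to 0.47 for Rpl13 and no female point is filled; Rpl3l, at -0.67 in males and -0.34 in females, is not drawn.

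Markers of other tissue moved with these calls. In males, all 14 olfactory bulb markers were higher in heterozygous mice, with a median log2 change of 3.65, and 9 of 10 excitatory cortical neuron markers were lower, with a median of -0.71. The olfactory bulb mean was 2.36, 2.34 and 1.77 in heterozygous male replicates 3, 4 and 5, which had the highest level of the members, and -0.09 and 1.09 in replicates 1 and 2. Without replicates 3, 4 and 5, a choice made after seeing the data that leaves 2 heterozygous males, 0 members were called and the median change was -0.01; across both sexes 0 were called and the median was 0.01. With the olfactory bulb mean as a covariate 0 members were called in males, and the median was 0.07. Leaving out heterozygous male 4 alone gave 11 called members, and leaving out heterozygous male 3 alone gave 18. Over the 10 fits that each left out 1 male the median was 0.07 to 0.14. The share of all genes called in these fits is not given here.

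**Figure D5:**
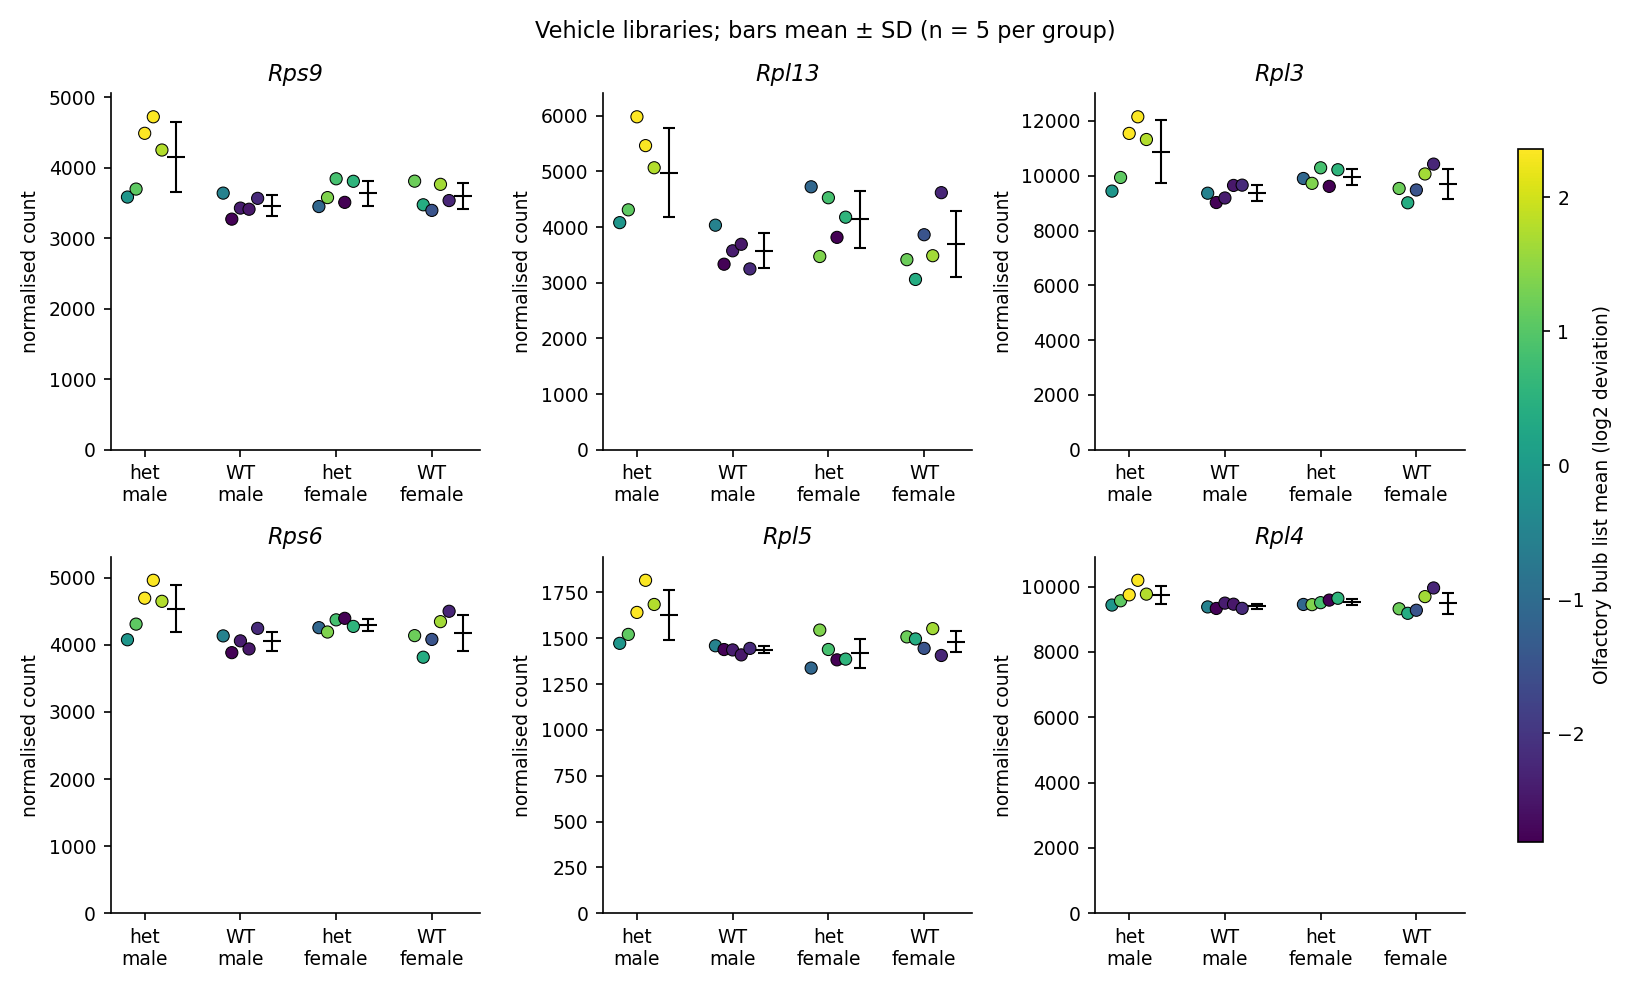
Normalised counts of 6 members in the 20 vehicle libraries by genotype and sex, each point a mouse coloured by its olfactory bulb mean, bars mean ± SD (n = 5 each). In Rps9, Rpl13, Rpl3, Rps6 and Rpl5 the 3 highest heterozygous males are replicates 3, 4 and 5, the libraries of highest olfactory bulb mean, and Rpl4 spans a narrow range in all 4 groups (9180 to 10191).

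The genotype difference itself differed between the sexes for 4 members, all lower in the female effect than in the male effect, and for 0 in the other direction. Of all genes tested, 6.26% were lower and 16% differed in either direction, so this share (5.06% of the members) was no larger than the background. Rpl5 (chr5:107900502-107909005) had 1337, 1544, 1438, 1382 and 1386 normalised counts in heterozygous females and 1507, 1496, 1444, 1552 and 1406 in wild-type females, with overlap. In males it had 1472, 1521, 1640.5, 1816 and 1684 in heterozygous mice and 1459, 1438, 1436, 1409 and 1444 in wild-type mice, with no overlap. The female minus male effect was -0.24 ± 0.08 for Rpl5 (limma adjusted p = 0.0311), -0.16 ± 0.06 for Rpl11 (0.0406), -0.28 ± 0.10 for Rpl10a (0.0433) and -0.13 ± 0.05 for Rpl15 (0.0490). Rpl5 and Rpl11 together bind 5S RNA and, when free of the ribosome, the ubiquitin ligase Mdm2, and Rpl10a forms the L1 stalk. The count was 0 without the 3 heterozygous males named above, together or one at a time, and 0 with the olfactory bulb covariate. It was also 0 without heterozygous females 1 or 4 or wild-type females 1 or 4, 1 without wild-type males 2, 3 or 4, and 2 without heterozygous female 5, wild-type female 5 or wild-type male 5, while it was 14 and 10 without heterozygous males 1 and 2.

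Related genes of the vehicle comparison in males were counted from lists of known function, to be read against the 16.7% of all genes tested that were higher, the 20% that were lower and the 36.7% in either direction. Of 8 ribosomal protein or ribosome-bound genes outside the naming rule, 2 were higher and 1 lower: Rack1, a scaffold protein of the small subunit, rose by 0.26 ± 0.07, Rps3a1, which encodes a small-subunit protein, by 0.09 ± 0.04, and Rpl22l1, the paralogue of Rpl22, fell by 0.11 ± 0.04 on the log2 scale (limma adjusted p of 0.00211, 0.0486 and 0.0206). Of 53 ribosome biogenesis genes, 8 were higher (15.1%) and 4 lower (7.55%), shares below those of all genes. Among the 8 higher were Rrp1b (0.55 ± 0.13), Npm1 (0.17 ± 0.04), Ddx21 (0.32 ± 0.08) and Ddx18 (0.17 ± 0.05). Of 36 translation factor genes, 5 were higher (13.9%) and 1 lower (2.78%), also below the shares of all genes. Eef1a1, the general elongation factor, had 54068 ± 5658 normalised counts in heterozygous males and 46589.8 ± 478 in wild-type males, and Eef1a2, its isoform of mature neurons and muscle, had 16038 ± 2102 in heterozygous males and 19039 ± 781 in wild-type males (SD, n = 5 each). Both passed, in opposite directions, at 0.21 ± 0.05 and -0.26 ± 0.07.

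Of 29 genes known to regulate ribosomal protein or TOP mRNAs, 11 were higher (37.9%) and 3 lower (10.3%) in heterozygous vehicle males, against 16.7% and 20% of all genes. The list was chosen with earlier results known, and these shares carry no test. Mtor, the kinase that controls TOP mRNA translation, changed by 0.26 ± 0.07, and Deptor, an inhibitor of it, by 0.47 ± 0.12. Larp1, which binds the TOP motif, fell by 0.15 ± 0.04 and Gsk3a fell by 0.27 ± 0.06 on the log2 scale (limma adjusted p of 0.00286, 0.00202, 0.00265 and 0.00088 in the order given). Of 78 mitochondrial ribosomal protein genes, 4 were higher (5.13%) and 12 lower (15.4%), with a median of -0.05, and of 80 nuclear genes of oxidative phosphorylation, 1 was higher and 20 were lower (25.0%). Across both sexes of vehicle mice, 3 regulators rose, Mtor, Tsc2 and Rps6kb2, and 1 fell, Gsk3a, which is 13.8% of the list against 13.1% of all genes. The olfactory bulb markers moved with all of these lists, and their part in them was not tested list by list.

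No member passed the test with lithium. In heterozygous mice, 0 members were called against vehicle by limma or edgeR, while 0.497% of all genes were, and 12 members had an unadjusted p under 0.05 by limma, as did 10.4% of all genes, and 11 by edgeR. In wild-type mice, 0 members were called by either, while 0.162% of all genes were, and 2 members had an unadjusted p under 0.05 by limma, as did 6.86% of all genes, and 1 by edgeR. The median log2 change over the members was -0.00 in both genotypes. Rpl4 had the smallest p in each. It ran from 8898 to 9438 normalised counts in lithium heterozygotes (median 9183) and from 9434 to 10191 in vehicle heterozygotes (median 9574). It ran from 8537 to 9408 in lithium wild-type mice (median 9106) and from 9180 to 9957 in vehicle wild-type mice (median 9354). All 10 lithium mice of each genotype were below the vehicle mean of their sex. The ranges met only at their edges in heterozygotes, while in wild-type mice the lithium range reached past the vehicle median.

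The log2 change of Rpl4 with lithium was -0.07 ± 0.02 in heterozygous mice (limma adjusted p = 0.0882) and -0.06 ± 0.02 in wild-type mice (limma adjusted p = 0.330), and neither passed. These comparisons share no library, but both take their spread from 1 fit over all 59 libraries. The next members were Rpl14 in heterozygous mice, at -0.14 ± 0.04 (0.1255), and Rps24 in wild-type mice, at 0.06 ± 0.03 (0.7235). With the olfactory bulb mean and the GC and length slopes as covariates, Rpl4 was called in wild-type mice (limma adjusted p = 0.0474), and without heterozygous fluoxetine males 3 and 4 it was called in heterozygous mice (0.0349). The difference of the lithium effect between genotypes passed for 0 members and for 0% of all genes by limma, and for 0 members by edgeR; the smallest p was that of Rpl10 (-0.23 ± 0.10) and 1 member was under 0.05 unadjusted by each tool, as were 2.78% of all genes by limma. Among the biogenesis genes, Rbm28 rose with lithium in both genotypes, by 0.21 ± 0.04 in heterozygous and 0.23 ± 0.04 in wild-type mice (limma adjusted p of 0.0024 and 0.00246), and Ncl fell in heterozygous mice.

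Between genotypes under lithium, 0 members were called by limma or edgeR and 0.0112% of all genes were, with 16 members and 18.3% of all genes under 0.05 unadjusted by limma, and 19 members by edgeR. The median change was 0.05 and 75 of 79 members were above 0, against a median of -0.01 over all genes. Members that vary together are not separate observations, so 1 shared shift can place most of them on the same side. Rps4x, the X-linked small-subunit protein, had the smallest p. It ran from 4434 to 5066 normalised counts in heterozygous mice (median 4645) and from 3886 to 4699 in wild-type mice (median 4372), a change of 0.12 ± 0.03 that did not pass (limma adjusted p = 0.195). Rpl7 followed at 0.06 ± 0.02, with 10 of 10 heterozygous mice above the wild-type mean of their sex (limma adjusted p = 0.233). The median change of the olfactory bulb markers in the same comparison was 1.22, and their part in the result was not tested beyond the covariate fit.

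No member passed the test with fluoxetine in either genotype. In wild-type mice, 0 members were called by limma or edgeR and 0.447% of all genes were, while 29 members had an unadjusted p under 0.05 by each tool, as did 17.5% of all genes by limma. The median change there was 0.07, with 74 of 79 above 0. Rpl30, a large-subunit protein, ran from 2120 to 2602 normalised counts in fluoxetine wild-type mice (median 2446) and from 2057 to 2403 in vehicle wild-type mice (median 2184). The ranges overlapped, and the change of 0.13 ± 0.04 did not pass (limma adjusted p = 0.0740), nor did that of Rpl23a at 0.13 ± 0.04 (0.0866). The olfactory bulb markers had a median change of 2.10 in this comparison, and with them and the GC and length slopes as covariates the median of the members was -0.03. The count was 3 without wild-type fluoxetine female 2 (Rpl30, Rps12 and Rpl23a) and 1, Rpl30, without wild-type vehicle female 4 or wild-type vehicle male 1.

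In heterozygous mice with fluoxetine, 0 members were called by limma or edgeR and 4.27% of all genes were, with 3 members and 24.1% of all genes under 0.05 unadjusted by limma, and 0 members by edgeR. Rps4x differed by 0.07 ± 0.03 and Rpl22 by 0.05 ± 0.02, without passing (limma adjusted p of 0.166 and 0.189). Between genotypes under fluoxetine, 0 members were called and 0.0112% of all genes were, with 0 members under 0.05 unadjusted by limma or edgeR, against 14.7% of all genes by limma, and the median change was 0.01. Rpl14 at 0.09 ± 0.04 and Rplp0 at 0.09 ± 0.06 had the smallest p there (limma adjusted p of 0.344 and 0.452). The difference of the fluoxetine effect between genotypes passed for 0 members and 0% of all genes by limma and for 0 members by edgeR, with 9 and 14 members under 0.05 unadjusted and 21.9% of all genes by limma. The median difference was -0.06, and Rps12 had the smallest p, at -0.31 ± 0.11 (limma adjusted p = 0.113), followed by Rpl13 at -0.29 ± 0.13 (0.180). The comparisons of drug with vehicle and of genotypes under vehicle share the vehicle libraries, so their values are not independent of each other.

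Translation factor genes of the same heterozygous fluoxetine comparison included 4 higher and 0 lower of 36, where 2.21% of all genes were higher and 4.27% differed in either direction: Pabpc1 at 0.17 ± 0.04, Eif5 at 0.18 ± 0.05, Eif2s2 at 0.11 ± 0.03 and Eif3e at 0.09 ± 0.03 (limma adjusted p from 0.0117 to 0.0450). Pabpc1 binds the poly(A) tail and its mRNA is itself a TOP mRNA, and Eif5 and Eif2s2 act with the initiator tRNA. Of the biogenesis genes, Nop56 rose there by 0.08 ± 0.03, and Pes1 rose with fluoxetine in wild-type mice by 0.16 ± 0.04 (limma adjusted p of 0.0455 and 0.0248).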

How the data were processed

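Values are the authors' deposited normalised counts for 59 libraries, a signal in which whole read counts were divided by a size factor of each library; 100% of values came out whole, within 0.01, when multiplied back. Salmon 0.11.2, R 3.6.0, DESeq2 1.19.11 and GRCm38 are named in the submitters' processing notes, without roles. For 3 libraries the size factor was close to 1. The 17901 genes that reached 10 in 4 or more libraries were tested with limma 3.58.1 in R 4.3.3 on log2(value + 1), with 12 group means over all 59 libraries and Benjamini-Hochberg adjustment over all genes at 0.05. A fold change on this scale understates the change of low genes. edgeR 4.0.16 on the recovered counts was an alternative. Recovered totals ran from 24391022 to 33842466; they limit precision through counting error only. The scripts were tested on simulated data.

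The members, gene lists and tests were chosen with earlier results of these data known. Members were named by a rule: up to 8 of smallest p among those called in a comparison, the 2 of smallest p where none was called, a fixed set of 25 symbols covering stalk, fusion, paralogue and disease genes, up to 4 called genes of each related list, and the extremes of level and spread. One member enters the counts and medians but is not reported here by name. Gene names and coordinates are from GENCODE vM21 and promoters from RefSeq on GRCm38.p6. Replicate numbers did not pair libraries: the median correlation of same-numbered libraries was -0.00 over 319 pairs.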

Additional observations from a re-analysis of the deposited data

Results flagged for a closer look

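Of 156 tests of single libraries within groups, 4 found one that stood apart from the rest of its group. This is a smaller share than the about 1 in 20 groups that chance gives. The mean of the members was -0.058 in heterozygous fluoxetine female 3, against 0.02 to 0.04 in the other 4. Rpl11 was at 3313 normalised counts in heterozygous vehicle female 3, against 3188 to 3213. In wild-type fluoxetine males, Rpl18 was at 1577 in replicate 3, against 1717 to 1726, and Rps12 was at 2399.5 in replicate 1, against 2664 to 2711.

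The vehicle genotype effect differed between females and males for 4 members by limma's test of the difference. It was -0.06 in females and 0.17 in males for Rpl5 (difference -0.24, adjusted p = 0.0311), and -0.03 and 0.13 for Rpl11 (-0.16, adjusted p = 0.0406). It was -0.06 and 0.22 for Rpl10a (-0.28, adjusted p = 0.0433), and -0.05 and 0.08 for Rpl15 (-0.13, adjusted p = 0.0490). None of the 4 passed without heterozygous vehicle males 3, 4 and 5.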

How the results depend on the processing

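Counts of called members are given under each setting that moved them, beside the main count. The share of all genes called under each setting is not given here, so a moved count need not concern the members in particular. For genotype under vehicle (11), quantile normalization gave 17, the GC and length slopes 3, and 0 were called with the olfactory bulb covariate, with both, without the 3 heterozygous vehicle males of highest olfactory bulb mean, or with only the groups compared; leaving out 1 library gave 0 to 27. In males (28), quantile normalization gave 50 with a median of 0.20, the compared groups alone 12, and the olfactory bulb covariate, both covariates and leaving out the 3 males 0, the last with a median of -0.0053; 1 library left out gave 11 to 40. For the sex difference (4), quantile normalization gave 13, the GC and length slopes 19, edgeR 8, the replicate block 2, and both covariates, the olfactory bulb covariate, the compared groups alone and leaving out the 3 males 0, the last with a median of 0.028; 1 library left out gave 0 to 14. With the replicate block the count was 12 under vehicle and 29 in males, and 8 of 59 libraries correlated best with their own number.

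For lithium in heterozygous mice (0), 1 was called without heterozygous fluoxetine males 3 and 4 (Rpl4), with the slopes or both covariates (Rpl41) or without the 3 males (Rps24), and 0 to 2 with 1 library left out. For lithium in wild-type mice (0), both covariates gave 1 (Rpl4). For fluoxetine in heterozygous mice (0), the slopes gave 1 (Rps2), both covariates 3 and leaving out the 3 males 1 (Rps4x). For fluoxetine in wild-type mice (0), 1 was called without heterozygous fluoxetine males 3 and 4 (Rpl30) and 3 with the compared groups alone, both covariates gave a median of -0.025, and 1 library left out gave 0 to 3. For the fluoxetine effect between genotypes (0), the slopes gave 1 (Rps2), both covariates a median of 0.044, and 1 library left out 0 to 1. The cause of these moves was not tested. The settings with GC and length slopes and without the 3 males were chosen after seeing the data. Leaving out heterozygous fluoxetine males 3 and 4 was, like the other tests, chosen with earlier results of these data known.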
